A study of Homo sapiens with 60 samples.

Results

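Of the 60675 genes in the count table, 7 are the members of the aldo-keto reductase family described here: AKR1C1, AKR1C2, AKR1C3, AKR1B1, AKR1B10, AKR1A1 and AKR7A2. The rows were taken by symbol, and all 7 passed the filter on low counts. RNA was sequenced from SW1783, a human astrocytoma cell line kept in L-15 medium, after 24 h with a herbal extract or with the solvent, dimethyl sulfoxide (DMSO). The 60 libraries form 25 groups, and the study asks which genes each extract changes at each of 3 doses. The vehicle group had 3 libraries. The water extracts were the decoctions Yijin-tang (3 libraries at each dose) and Soshiho-tang (2 at each dose), both made of several herbs. The 6 other extracts were prepared with ethanol from single herbs. Doses in µg/mL, written high, medium and low, were 500, 100 and 20 for both decoctions, Zizyphi Semen, Longan Arillus and Liriopis seu Ophiopogonis Tuber. For Schisandrae Fructus they were 310, 62 and 12.4, and these 4 herbs had 3 libraries at each dose. Single libraries represent each dose of Polygalae Radix (30, 6, 1.2) and of Aucklandiae Radix (160, 32, 6.4). The sample labels give the vehicle as 0.1% DMSO and the series text gives 2%; which of them the cells received was not settled here.

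Aldo-keto reductases are soluble enzymes that use NADPH to reduce aldehydes and ketones to alcohols. They clear reactive aldehydes made by lipid peroxidation and reduce steroids, prostaglandins and sugars. Several of their genes, the AKR1C group and AKR1B10 above all, are known targets of NRF2, the transcription factor that answers oxidants and electrophiles through antioxidant response elements. AKR1C1 inactivates progesterone by reducing it at carbon 20, AKR1C2 reduces dihydrotestosterone, and AKR1C3 makes testosterone and also acts as a prostaglandin F synthase. AKR1B1 is aldose reductase, which turns glucose into sorbitol in the polyol pathway. AKR1B10 reduces retinal and other aldehydes, AKR1A1 is the general aldehyde reductase, and AKR7A2 reduces succinic semialdehyde, a product of the neurotransmitter GABA, and aflatoxin dialdehyde.

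The 3 AKR1C genes lie side by side and are close copies, so reads cannot always be assigned to 1 of them. In GENCODE release 29 (GRCh38), AKR1C1 (ENSG00000187134) lies on the plus strand at chr10:4963253-4983283, AKR1C2 (ENSG00000151632) on the minus strand at chr10:4987400-5018031 and AKR1C3 (ENSG00000196139) on the plus strand at chr10:5035354-5107686. Each codes for 969 bases. The coding sequences of AKR1C1 and AKR1C2 were 98.04% identical, with 19 differing bases, against 91.43% for AKR1C1 and AKR1C3 and 91.02% for AKR1C2 and AKR1C3. Coding bases 63 to 162 are shown because they hold 10 of those 19 differences, and capitals mark each position at which any of the 3 genes differs.
AKR1C1: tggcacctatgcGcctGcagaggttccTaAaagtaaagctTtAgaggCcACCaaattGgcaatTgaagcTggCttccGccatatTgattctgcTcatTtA
AKR1C2: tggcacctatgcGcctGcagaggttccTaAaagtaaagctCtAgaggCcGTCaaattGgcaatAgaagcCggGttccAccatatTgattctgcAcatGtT
AKR1C3: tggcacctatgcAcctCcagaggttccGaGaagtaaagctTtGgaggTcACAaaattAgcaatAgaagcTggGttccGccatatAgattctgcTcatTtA
Other stretches give no such mark, since AKR1C1 and AKR1C2 share an identical run of 186 coding bases, longer than a 100-base read. Of the 870 windows of 100 coding bases in AKR1C1, 180 (20.69%) occurred unchanged in another gene, 164 of them in AKR1C2. The share was 26.44% for AKR1C2, 9.77% for AKR1C3, 3.53% for AKR1B10, 0.51% for AKR7A2 and 0 for AKR1B1 and AKR1A1. The deposited values are estimated counts, which need not be whole where reads are shared. A value more than 0.001 from a whole number occurred in 59 of 60 libraries for AKR1C1, 60 for AKR1C2, 59 for AKR1C3, 18 for AKR7A2, 13 for AKR1B10 and in 0 of 60 for AKR1B1 and AKR1A1. Values of single AKR1C genes are therefore uncertain to the extent that the authors' counting split shared reads, and the sum over the group is given beside them.

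AKR1B1 (ENSG00000085662, minus strand, chr7:134442350-134459284) and AKR1B10 (ENSG00000198074, plus strand, chr7:134527592-134541408) are also neighbours, but their coding sequences were only 75.21% identical, with no identical run above 22 bases. AKR1A1 (ENSG00000117448) lies on the plus strand at chr1:45550543-45570049 and AKR7A2 (ENSG00000053371) on the minus strand at chr1:19303965-19312146. The promoter sequences of 6 members were found in RefSeq (GRCh38.p14), and those of AKR1C1 and AKR1C2 are shown because the counts of these genes moved by different amounts under the same extracts. The 250 bases before each RefSeq start shared an unbroken run of 245 bases, printed here in capitals. These starts differ from the GENCODE ones. The AKR1C2 window lies inside the GENCODE span of its gene, and the AKR1C1 window runs past the GENCODE start. AKR1C1 is read from chr10:4963165-4963414 (plus strand) and AKR1C2 from chr10:5003858-5004107 (minus strand).
AKR1C1: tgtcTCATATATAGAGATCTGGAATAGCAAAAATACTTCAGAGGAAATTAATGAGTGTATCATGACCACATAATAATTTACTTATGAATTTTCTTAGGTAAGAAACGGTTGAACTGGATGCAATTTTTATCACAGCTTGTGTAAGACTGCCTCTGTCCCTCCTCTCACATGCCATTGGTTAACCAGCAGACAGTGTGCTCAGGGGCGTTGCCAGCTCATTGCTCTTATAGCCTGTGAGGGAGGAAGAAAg
AKR1C2: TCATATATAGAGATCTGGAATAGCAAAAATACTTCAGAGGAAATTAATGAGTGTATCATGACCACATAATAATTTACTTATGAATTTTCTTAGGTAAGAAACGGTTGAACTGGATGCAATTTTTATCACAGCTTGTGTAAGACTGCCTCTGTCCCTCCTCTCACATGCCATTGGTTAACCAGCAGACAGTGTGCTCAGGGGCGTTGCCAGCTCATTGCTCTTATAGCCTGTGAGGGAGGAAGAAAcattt
The core of the antioxidant response element, TGACNNNGC on either strand, occurred in 13.35% of all 35116 promoter windows of 300 bases. Among the members, only the AKR7A2 windows held it, with 3 matches, 2 of them close together. The 100 bases that hold them, at chr1:19312227-19312326 on the minus strand, are shown with the matches in capitals.
AKR7A2: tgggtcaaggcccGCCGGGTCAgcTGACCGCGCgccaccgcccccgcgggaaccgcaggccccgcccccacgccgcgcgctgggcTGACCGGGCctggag
The windows of AKR1C1, AKR1C2, AKR1C3, AKR1B1 and AKR1A1 held no match, which says only that these letters are not in those 300 bases. The AP-1 site TGANTCA occurred in none of the members' windows and in 7.71% of all windows. TATAAA occurred in 1 AKR1C3 window and in 11.53% of all windows.

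Libraries held 18.73 to 35.52 M counts (median 25.79 M). At this depth AKR1B10, the lowest member, had 68 to 193 counts per library and AKR1B1, the highest, 2831 to 10214, so counting error weighs most on AKR1B10, AKR1C2 and AKR1C3. Levels below are CPM, counts relative to the library total and scaled for composition, with the SD between libraries. The values of VIM and the other cell type markers in this paragraph are scaled to the library total alone. Nothing in the sources says that libraries of a group came from separate cultures, so the p-values speak of the scatter of these libraries alone, which may be technical. The first part of the library names puts the vehicle libraries in a set of their own and each pair of extracts in another, so extract and library set cannot be told apart in any comparison with the vehicle; low, medium and high doses of an extract share a set. The high-dose library of Polygalae Radix stood apart, with 20.3% mitochondrial counts and 772 CPM of VIM (vimentin) against a median of 4824 over all libraries. Of 10 astroglial markers, VIM, SOX9, SLC1A3 and NES had counts in every library, whereas GFAP, S100B, AQP4, ALDH1L1 and FABP7 stayed at or below 0.33 CPM and SLC1A2 at or below 0.5 CPM. Lists for other cell types were mixed. Epithelial KRT18 and KRT8 had medians of 116 and 17.3 CPM but EPCAM and CDH1 0.04 and 0, endothelial KDR 30.3 but VWF and CDH5 0.08 and 0, and neuronal SNAP25 and SYT1 28.3 and 21.6 but RBFOX3 and SLC17A7 0.22 and 0.23. Their part in the results was not tested. In bulk RNA, fewer cells with a transcript and less RNA per cell cannot be told apart.

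In vehicle-treated cells the members spanned a wide range, from aldose reductase down to the retinal reductase. Per kb of coding length, AKR1B1 reached 216 ± 11.2 CPM (SD, n = 3), AKR7A2 47.3 ± 2.14, AKR1A1 45.9 ± 2.89, AKR1C1 18.7 ± 1.76, AKR1C3 10.3 ± 1.4, AKR1C2 7.25 ± 0.805 and AKR1B10 4.46 ± 0.271. The libraries of AKR7A2 and AKR1A1 overlapped in this order, and those of every other pair of neighbours did not. Over all 60 libraries AKR1C1 varied most, with its highest CPM 9.1 times its lowest, against 4 times for AKR1B1, 3.9 for AKR1C3, 3.4 for AKR1A1, 3 for AKR7A2, 2.2 for AKR1B10 and 2.1 for AKR1C2. These ratios rest largely on single libraries. The high-dose library of Polygalae Radix, which stood apart, was the lowest for each member except AKR1B10. AKR1C1 was highest in the single high-dose library of Aucklandiae Radix. Without these libraries AKR1C1 ran from 15.4 to 66.6 CPM, AKR1B1 from 178 to 355 and AKR1A1 from 40.3 to 66.5.

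At the high dose AKR1C1 rose above the low dose in 3 of the 6 replicated extracts, Yijin-tang, Soshiho-tang and Schisandrae Fructus. AKR1C2 and AKR1A1 rose with Soshiho-tang and Schisandrae Fructus only, and AKR1B1 with both decoctions only. With edgeR's quasi-likelihood test, a high dose against the low dose of the same extract moved 9 of 42 member values up and 0 down. For Yijin-tang 2 of 7 members rose, where 3.61% of the 17851 genes tested rose, and the members' median log2 change was 0.02 against 0 for all genes. Soshiho-tang raised 4 of 7 members (9.92% of all genes), with a median of 0.27 against 0. Schisandrae Fructus raised 3 of 7, beside 22.3% of all genes, with a median of 0.15 against 0; a count of that size is not far from the background of this extract. Zizyphi Semen (2.02%), Longan Arillus (0.342%) and Liriopis seu Ophiopogonis Tuber (0%) raised none of the 7, with medians of 0.04, 0.08 and 0.02. The falls over all genes were 3.39%, 8.66%, 0%, 23.6%, 0.594% and 3.76% for Yijin-tang, Soshiho-tang, Liriopis seu Ophiopogonis Tuber, Schisandrae Fructus, Longan Arillus and Zizyphi Semen. At an unadjusted p under 0.05, 12 member values were higher and 2 lower, and DESeq2 also called 9 higher and 0 lower. Here and below, no share of all genes is given at an unadjusted p or with DESeq2. Such member counts therefore cannot be set against a background.

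**Figure D1:**
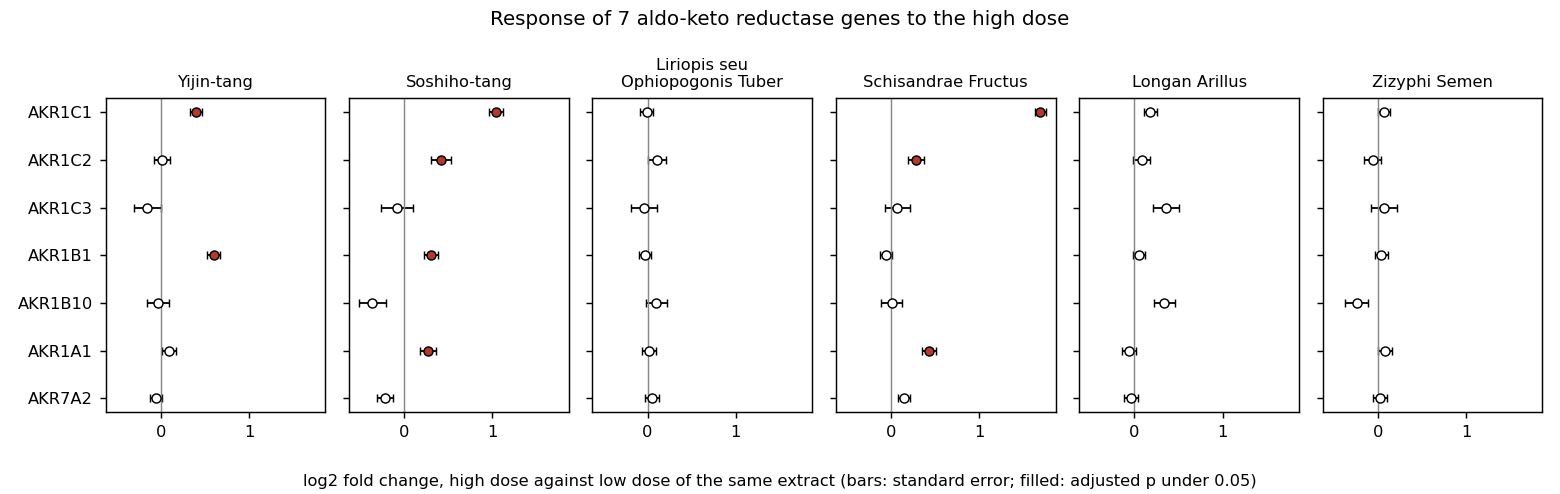
Log2 fold change (x axis) of the 7 members (y axis) at the high dose against the low dose of the same extract, 1 panel for each of 6 extracts, with standard errors as bars and filled points for an adjusted p under 0.05 in edgeR. AKR1C1 rises by 0.40 with Yijin-tang, 1.04 with Soshiho-tang and 1.69 with Schisandrae Fructus, and AKR1C3, AKR1B10 and AKR7A2 have no filled point.

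AKR1C1, the progesterone-inactivating member, rose in each of the 3 responding extracts and had the largest change of the 7 with Soshiho-tang and Schisandrae Fructus, while AKR1B1 changed more with Yijin-tang. With Schisandrae Fructus its 3 high-dose libraries stood at 61.3, 66.6 and 66.1 CPM, against 18.6, 20.5 and 21.0 at the low dose and 20.5, 21.0 and 21.7 at the medium dose. All high-dose libraries lay above all others of this extract, and the medium dose overlapped the low dose. The rise was 3.22-fold, a log2 change of 1.69 ± 0.06 (SE; edgeR adjusted p = 3.07e-24). With Soshiho-tang the high-dose libraries held 36.2 and 36.9 CPM, the medium-dose ones 17.3 and 17.8 and the low-dose ones 16.9 and 18.5. The medium-dose libraries lay within the low-dose range, and the high dose was higher by 1.04 ± 0.08 (adjusted p = 1.28e-13). With Yijin-tang AKR1C1 stood at 28.96, 28.5 and 26.3 CPM at the high dose and at 20.0, 21.7 and 21.4 at the low dose, groups that did not overlap. This smaller rise was 0.40 ± 0.07 (adjusted p = 3.25e-05).

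The other replicated extracts left AKR1C1 near its vehicle level of 18.2 ± 1.71 CPM (SD, n = 3). High-dose means were 19.2 ± 1.64 for Liriopis seu Ophiopogonis Tuber, 19.8 ± 1.45 for Zizyphi Semen and 21.2 ± 1.18 for Longan Arillus (n = 3 each). Against the low dose their log2 changes of -0.01, 0.07 and 0.18 did not pass (adjusted p = 1, 0.648 and 0.289 in edgeR). Against the vehicle, Longan Arillus was called at 0.22 ± 0.07 (adjusted p = 0.0308), but this call was lost without vehicle replicate 1 (0.22, adjusted p = 0.0599) or 2 (0.15, 0.218), without its own high-dose replicate 2 (0.23, 0.0581) or 3 (0.18, 0.176), where only the libraries compared were fitted (0.24, 0.0625) and when the AKR1C counts were summed (0.15, 0.115). Schisandrae Fructus, Soshiho-tang and Yijin-tang stood 1.82 ± 0.07, 1.00 ± 0.07 and 0.61 ± 0.07 above the vehicle, and these calls held in every alternative run. For the summed AKR1C counts the same differences were 1.25, 0.61 and 0.32 (adjusted p = 1.7e-20, 1.45e-09 and 0.000229).

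**Figure D2:**
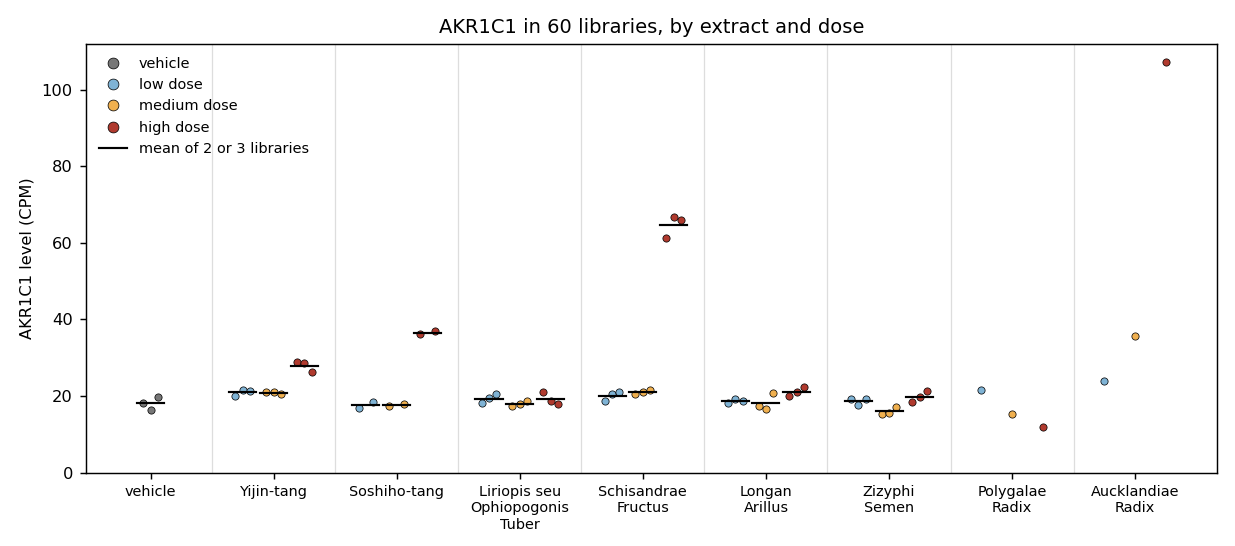
AKR1C1 level in CPM (y axis, from 0) in each of the 60 libraries by extract (x axis) and dose (colour), with short lines for the means of groups of 2 or 3 libraries. The high doses of Yijin-tang, Soshiho-tang, Schisandrae Fructus and Aucklandiae Radix lie above the 16.4 to 19.9 CPM of the vehicle libraries, with the single Aucklandiae Radix library highest at 107 CPM. High-dose Longan Arillus, medium-dose Schisandrae Fructus and the low dose of Polygalae Radix also lie above that range. So do the medium and low doses of Yijin-tang and Aucklandiae Radix.

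AKR1C2, which reduces dihydrotestosterone, moved far less than its near-identical neighbour. With Soshiho-tang it stood at 9.40 and 8.87 CPM at the high dose and 6.96 and 6.66 at the low dose, a rise of 0.42 ± 0.11 (adjusted p = 0.00592 in edgeR). The call was lost without high-dose replicate 2 (0.39, adjusted p = 0.0649) or low-dose replicate 3 (0.39, adjusted p = 0.0915). With Schisandrae Fructus the high-dose libraries held 9.30, 10.1 and 9.48 CPM and the low-dose ones 7.00, 8.37 and 8.28, which did not overlap. That rise of 0.28 ± 0.09 (adjusted p = 0.00892) was not called without low-dose replicate 1 (0.20, adjusted p = 0.0992). Yijin-tang, which raised AKR1C1, gave AKR1C2 a change of 0.02 ± 0.09 (adjusted p = 0.955), with overlapping libraries. Against the vehicle, AKR1C2 was 0.37 ± 0.11 higher with Soshiho-tang (adjusted p = 0.00624; 0.28 and adjusted p = 0.063 without vehicle replicate 3, 0.33 and 0.0735 without high-dose replicate 2) and 0.44 ± 0.09 higher with Schisandrae Fructus (adjusted p = 0.000151).

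AKR1C3, the testosterone-forming and prostaglandin F-forming member, passed in none of the 30 comparisons of dose with dose or with vehicle. Its high-dose changes against the low dose ran from -0.15 ± 0.15 (Yijin-tang) to 0.36 ± 0.15 (Longan Arillus, adjusted p = 0.348 in edgeR). In Longan Arillus the high-dose libraries at 9.5, 10.9 and 10.8 CPM lay above the low-dose ones at 7.22, 8.31 and 8.69, and the change did not pass after adjustment. The gene's libraries scattered more than those of its neighbours, with standard errors of 0.14 to 0.18 at the high doses against 0.06 to 0.08 for AKR1C1, so a change of the size seen for AKR1C2 may not be detectable here.

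The makeup of the AKR1C counts shifted with the extracts that raised AKR1C1. In vehicle libraries AKR1C1 made up 51.7% of the summed AKR1C1, AKR1C2 and AKR1C3 counts (range 47.9% to 57.7%, n = 3). Its share was 63.1% with high-dose Yijin-tang, 67.5% with Soshiho-tang and 76.6% with Schisandrae Fructus, and the lowest library of each, at 61.4%, 67.3% and 75.2%, lay above all vehicle libraries. The medium-dose libraries of Yijin-tang (mean 55.0%) and Soshiho-tang (53.9%) lay within the vehicle range. With Schisandrae Fructus (58.3%) the medium-dose libraries stood at 54.6%, 58.8% and 61.4%. Only the first of these lay within the vehicle range, and the others lay above it. When the counts of the AKR1C genes were summed, so that shared reads no longer matter, the sum still rose by 0.21 with Yijin-tang (adjusted p = 0.0261), 0.69 with Soshiho-tang (adjusted p = 1.34e-09) and 1.16 with Schisandrae Fructus (adjusted p = 1.07e-19) against the low dose.

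**Figure D3:**
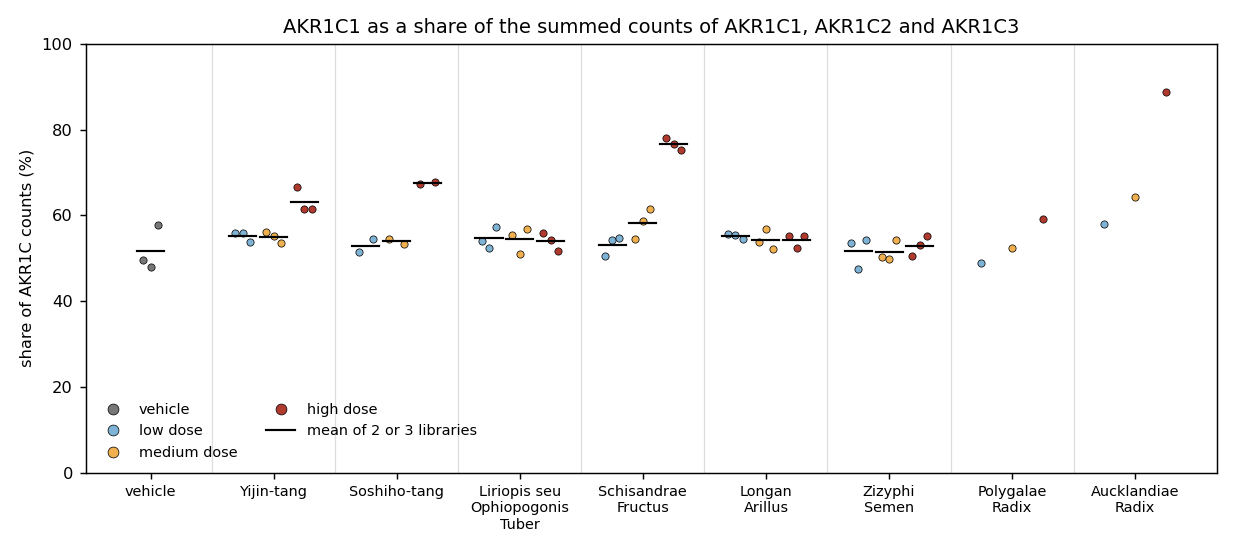
AKR1C1 as a share (%) of the summed counts of AKR1C1, AKR1C2 and AKR1C3 (y axis, 0 to 100) in each library by extract (x axis) and dose (colour), with lines for means. The share lies near 52% with vehicle and at 63.1%, 67.5%, 76.6% and 88.9% at the high doses of Yijin-tang, Soshiho-tang, Schisandrae Fructus and Aucklandiae Radix.

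AKR1B1, aldose reductase and the most abundant member, rose with both decoctions and passed in no replicated extract of a single herb. With Yijin-tang it stood at 346, 355 and 327 CPM at the high dose, 257, 252 and 238 at the medium dose and 227, 224 and 224 at the low dose. The 3 dose groups did not overlap. The high dose was 1.52-fold above the low dose (0.60 ± 0.07, edgeR adjusted p = 5.34e-09), while the medium dose lay 0.14 ± 0.07 above it and did not pass (adjusted p = 0.914). Against the vehicle libraries at 217, 197 and 200 CPM, high-dose Yijin-tang was 0.74 ± 0.07 higher (adjusted p = 2.29e-11). The medium dose, at 0.27 ± 0.07 (adjusted p = 0.0066), was the only member value called at a medium dose, 1 of 7 where 3.85% of all genes rose, and leaving out vehicle replicate 3 took it to 0.26 (adjusted p = 0.0505).

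Soshiho-tang raised AKR1B1 to 279 and 285 CPM at the high dose, from 232 and 225 at the low dose. The change was 0.30 ± 0.08 (adjusted p = 0.00521 in edgeR) and 0.28 without low-dose replicate 3 (adjusted p = 0.0677). Schisandrae Fructus, which gave AKR1C1 its largest rise among the replicated extracts, left AKR1B1 at 208 CPM in each of 3 libraries, against 217, 221 and 209 at the low dose (-0.06 ± 0.07, adjusted p = 0.513). In the other 3 replicated extracts the high-dose changes of AKR1B1 against the low dose lay between -0.03 and 0.05.

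AKR1B10, the retinal reductase, was the least abundant member and changed little. Its high-dose changes against the low dose ran from -0.36 ± 0.15 with Soshiho-tang (4.35 and 3.58 CPM against 4.69 and 5.41, adjusted p = 0.0863 in edgeR) to 0.34 ± 0.12 with Longan Arillus (5.38, 5.37 and 5.56 CPM against 3.72, 4.25 and 4.93, adjusted p = 0.215). None passed. Against the vehicle libraries at 4.40, 3.93 and 4.35 CPM, Longan Arillus was called at 0.36 ± 0.12 (adjusted p = 0.0437) and Schisandrae Fructus at 0.32 ± 0.12 (adjusted p = 0.0284). The Longan Arillus call was lost in each of the 6 fits that left out 1 of its libraries or 1 vehicle library, with adjusted p from 0.0602 to 0.164, with no filter on low counts (0.39, adjusted p = 0.0766) and with DESeq2 (0.36, adjusted p = 0.0558). The Schisandrae Fructus call was lost where only the libraries compared were fitted (0.33, adjusted p = 0.0571), without vehicle replicate 2 (0.27, adjusted p = 0.115) and without its high-dose replicate 3 (0.20, adjusted p = 0.221), and its low dose already stood at 5.27 ± 0.81 CPM (SD, n = 3), beside 5.30 ± 0.818 at the high dose.

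AKR1A1, the general aldehyde reductase, rose at the high doses of Schisandrae Fructus and Soshiho-tang. With Schisandrae Fructus it stood at 64.2, 65.7 and 66.5 CPM at the high dose and at 49.7, 47.5 and 47.7 at the low dose, groups far apart relative to their spread. The rise was 0.43 ± 0.08 (edgeR adjusted p = 7.62e-06), and against the vehicle 0.54 ± 0.08 (adjusted p = 1.57e-07). With Soshiho-tang the high-dose libraries held 55.8 and 57.1 CPM and the low-dose ones 45.0 and 48.5. That rise of 0.27 ± 0.09 (adjusted p = 0.039) was lost in each of the 4 fits that left out 1 of these libraries, namely without high-dose replicate 2 (0.29, adjusted p = 0.105) or 3 (0.25, 0.176) and without low-dose replicate 2 (0.22, 0.266) or 3 (0.32, 0.0777). Against the vehicle at 47.9, 43.8 and 42.5 CPM, it was 0.33 ± 0.09 (adjusted p = 0.00283) and held in all alternatives run.

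AKR7A2, the succinic semialdehyde reductase, was called in 1 comparison alone, against the vehicle. Against the low dose it changed by 0.15 ± 0.07 with Schisandrae Fructus (56.3, 60.9 and 57.1 CPM against 52.1, 52.7 and 52.1) and by -0.22 ± 0.09 with Soshiho-tang (48.7 and 47.3 CPM against 55.7 and 56.0). Neither passed (adjusted p = 0.106 and 0.0926 in edgeR). The high-dose and low-dose libraries did not overlap in either extract, but so few libraries can separate where the change is small. With Soshiho-tang those of AKR1C3 did not overlap either, at -0.08 ± 0.18 (adjusted p = 0.843). Where only the libraries compared entered the fit, both AKR7A2 changes were called, Schisandrae Fructus higher (0.15, adjusted p = 0.0274) and Soshiho-tang lower (-0.23, adjusted p = 0.00162). Against the vehicle, Schisandrae Fructus was 0.18 ± 0.08 higher (adjusted p = 0.0438), a call lost without vehicle replicate 1 (0.19, adjusted p = 0.0669) or 3 (0.14, 0.171) and without high-dose replicate 2 (0.14, 0.164) or 3 (0.20, 0.0563).

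**Figure D4:**
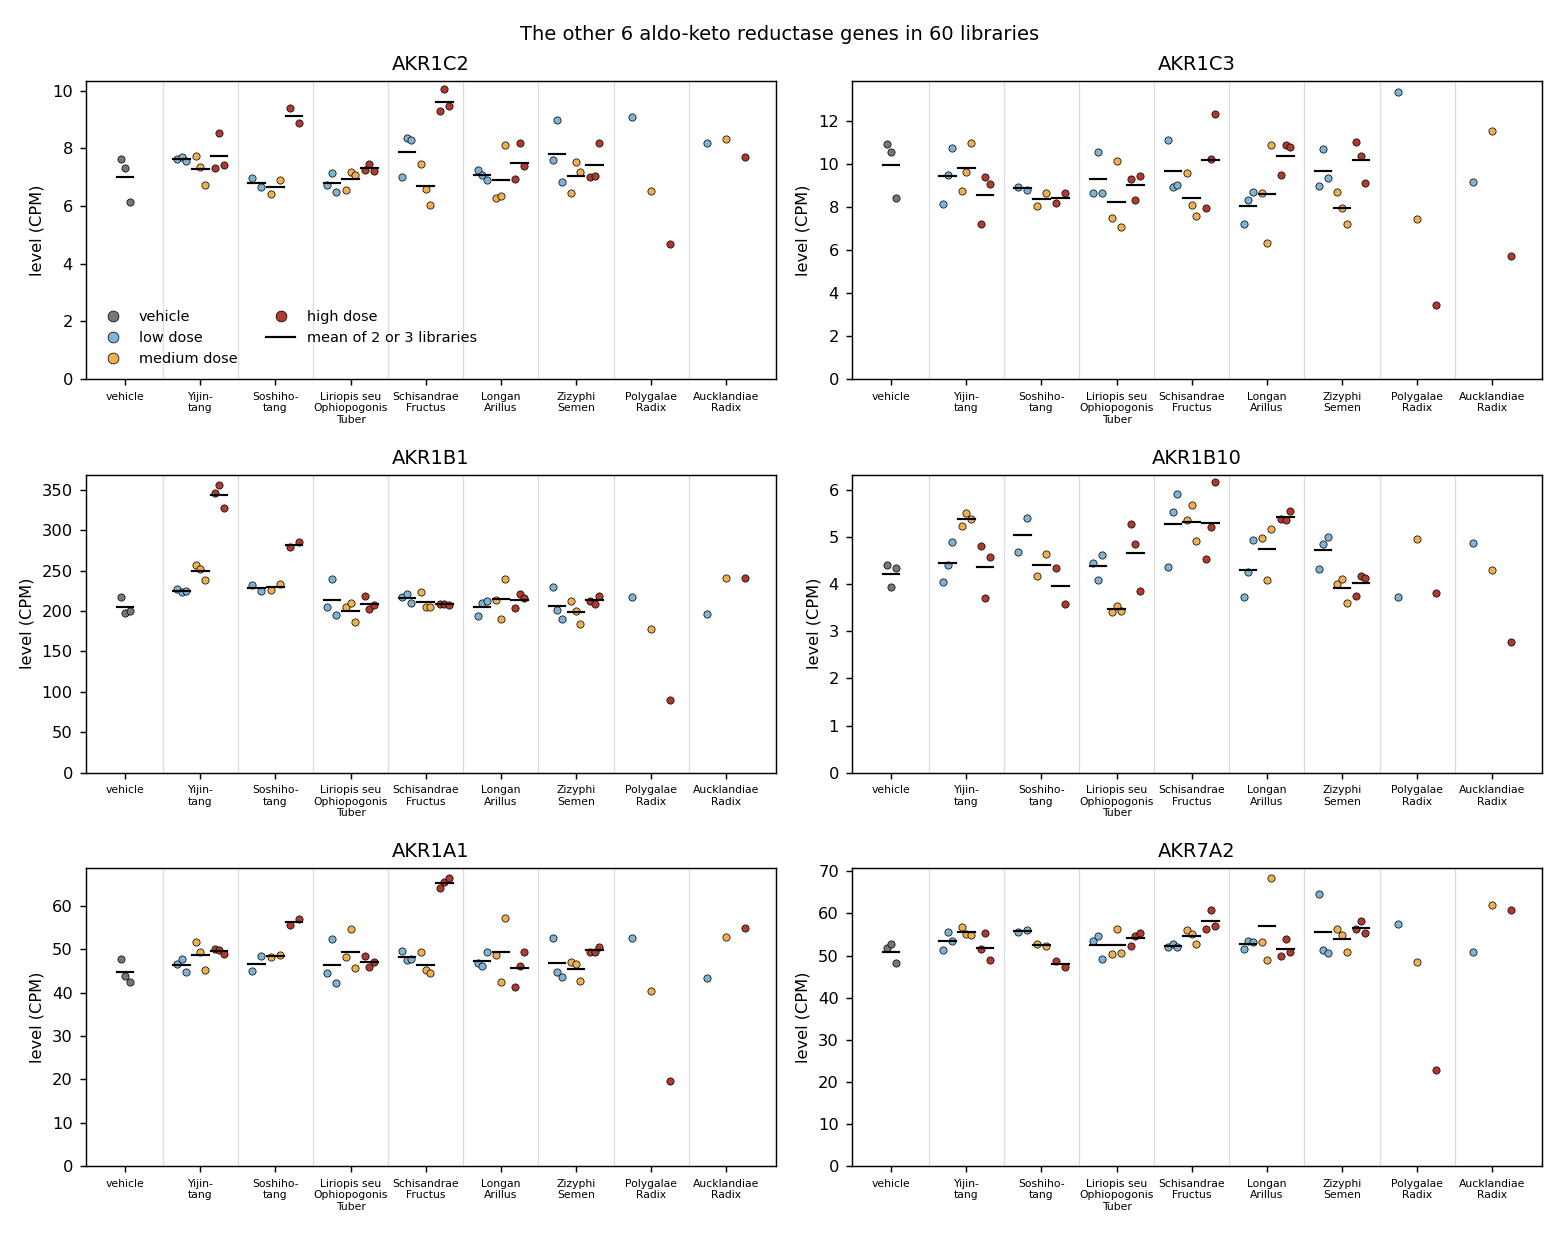
Levels in CPM (y axes, each from 0) of AKR1C2, AKR1C3, AKR1B1, AKR1B10, AKR1A1 and AKR7A2 in the 60 libraries by extract (x axes) and dose (colour), with lines for the means of groups of 2 or 3 libraries. AKR1B1 stands out at the high dose of both decoctions and AKR1A1 at the high dose of Schisandrae Fructus, at 64.2 to 66.5 CPM, and the single high-dose library of Polygalae Radix is the lowest of all 60 for AKR1C2, AKR1C3, AKR1B1, AKR1A1 and AKR7A2.

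Against the vehicle, 13 of 42 high-dose member values rose and 0 fell, over the same 3 vehicle libraries in every comparison. Schisandrae Fructus raised 5 of 7 members (23.4% of all genes tested), Soshiho-tang 4 (14.2%), Yijin-tang 2 (8.02%), Longan Arillus 2 (5.61%), and Liriopis seu Ophiopogonis Tuber (1.42%) and Zizyphi Semen (5.3%) raised 0. The falls over all genes in these comparisons were 26.7%, 16.2%, 11.7%, 10.3%, 2.67% and 7.97%, in the same order. At the medium doses against the vehicle 1 of 42 rose, AKR1B1 with Yijin-tang, and 0 fell, and 7 were higher and 3 lower at an unadjusted p under 0.05, and DESeq2 called 2 higher. In these medium-dose comparisons 3.85% of all genes rose and 10.4% fell with Yijin-tang, 1.27% and 2.93% with Soshiho-tang, 4.06% and 8.9% with Liriopis seu Ophiopogonis Tuber, 2.05% and 3.34% with Schisandrae Fructus, 10% and 15.2% with Longan Arillus and 5.31% and 9.11% with Zizyphi Semen. At the medium doses 0 of 42 values passed against the low dose in edgeR. In these comparisons 0.0224% of all genes rose with Yijin-tang, 0.028% with Schisandrae Fructus and 0% elsewhere, and 0.0112% fell with Soshiho-tang and with Schisandrae Fructus. Of the 42 values, 2 were higher and 4 lower at an unadjusted p under 0.05. DESeq2 called 0 of them, but it gave no adjusted p for 6 and so could not call those. At the low doses 0 of 42 passed against the vehicle, and 3 were higher and 0 lower at an unadjusted p under 0.05, while DESeq2 called 0. There 1% of all genes rose and 1.61% fell with Yijin-tang, 0.532% and 1.38% with Soshiho-tang, 2.02% and 4.58% with Liriopis seu Ophiopogonis Tuber, 0.471% and 0.611% with Schisandrae Fructus, 1.63% and 3.78% with Longan Arillus and 6.61% and 11.9% with Zizyphi Semen. Of the member values that passed, AKR1B1 with medium-dose Yijin-tang was thus the single one below the highest dose.

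The differences between extracts were tested directly within 3 pairs, each of 1 library set, as the high minus low effect of one extract minus that of the other. Soshiho-tang and Yijin-tang shared their doses, and the AKR1C1 rise was 0.63 ± 0.11 larger with Soshiho-tang (edgeR adjusted p = 2.06e-05). It was the only 1 of 7 members to pass, where 5.1% of all genes differed upward and 4.3% downward. AKR1B1 leaned the other way, larger with Yijin-tang (-0.30 ± 0.10, adjusted p = 0.0638), and passed with DESeq2 (-0.31, adjusted p = 0.0352), with no filter on low counts (-0.30, 0.0494) and where only the libraries compared were fitted (-0.31, 0.000817). For AKR1C2 the difference was 0.40 ± 0.15 (adjusted p = 0.0823), and it passed where only the libraries compared were fitted (0.40, adjusted p = 0.0425) and without Yijin-tang high-dose replicate 2 (0.48, adjusted p = 0.0453). Schisandrae Fructus and Liriopis seu Ophiopogonis Tuber had different doses, 310 and 12.4 against 500 and 20 µg/mL. Between them 2 of 7 members differed, AKR1C1 by 1.69 ± 0.10 (adjusted p = 8.58e-18) and AKR1A1 by 0.41 ± 0.11 (adjusted p = 0.00313), beside 15% of all genes upward and 16.1% downward. Zizyphi Semen and Longan Arillus differed in 0 of 7 (1.41% upward, 2.55% downward); the nearest was AKR1B10 at -0.58 ± 0.17 (adjusted p = 0.0503), which fell by 0.24 with Zizyphi Semen and stood 0.34 higher with Longan Arillus, neither passing alone. This difference passed with a replicate block (-0.58, adjusted p = 0.0469), without Zizyphi Semen low-dose replicate 1 (-0.64, adjusted p = 0.0361) and without Longan Arillus low-dose replicate 3 (-0.67, adjusted p = 0.0266). Over these 21 values 4 were higher and 2 lower at an unadjusted p under 0.05.

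The extracts with 1 library per dose allow no test, so a member was counted by size alone, from a 2-fold distance to the vehicle mean or low-dose library upward, with 10 CPM reached in one of them. The shares of genes beside these counts are over genes that reached 10 CPM. AKR1C2 and AKR1B10 did not reach it in these comparisons, nor did AKR1C3 at the high dose of Aucklandiae Radix, so they could not be counted there. Aucklandiae Radix gave the highest AKR1C1 level of the series, 24.0, 35.6 and 107 CPM at the low, medium and high dose. Its high-dose library was itself unusual. Its log2 CPM had a Pearson r of 0.9709 with the median over all libraries, the lowest after high-dose Polygalae Radix (0.9632). The part of this in the AKR1C1 level was not tested. The high dose was 5.9-fold above the vehicle mean and 4.46-fold above the low dose, the only 1 of 7 members counted in each, where 4.42% and 2.42% of genes lay as far up. AKR1C2 did not follow, at 8.19, 8.32 and 7.69 CPM, and AKR1C3 stood at 9.16, 11.5 and 5.72 CPM. Thus AKR1C1 made up 58.0% (95% exact binomial interval 54.9% to 61.1%), 64.2% (61.5% to 66.8%) and 88.9% (87.7% to 90.0%) of the AKR1C counts at the 3 doses, intervals that cover counting error only. AKR1B1 and AKR1A1 were at 241 and 55.0 CPM at the high dose, 1.18-fold and 1.23-fold the vehicle mean.

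The high-dose library of Polygalae Radix, which stood apart as described, had low values of most members. AKR1B1 was at 89.9 CPM, AKR1A1 at 19.7 and AKR7A2 at 22.8, or 0.439-fold, 0.439-fold and 0.448-fold the vehicle mean, 3 of 7 members where 13.9% of genes reaching 10 CPM lay as far down. AKR1C3 stood lower still, at 0.344-fold, and was not counted because its vehicle mean of 9.97 CPM lay under 10 CPM. AKR1C3 was at 3.43 CPM against 13.4 at the low dose, and 4 of 7 members were counted lower than at the low dose (15.2% of genes). When counts were scaled to the library total alone, the 3 counted differences from the vehicle shrank to -0.89, -0.89 and -0.86 on the log2 scale and were no longer counted, nor was AKR1B1 against the low dose (-0.97). AKR1C1, at 11.8 CPM, and AKR1B10, at 3.81 CPM, were not counted under either scaling. The part of the library's overall state in these values was not tested.

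Further genes of the aldo-keto reductase superfamily rose in the same extracts against the low dose, and fewer passed against the vehicle. Of 7 other family genes that could be tested, Schisandrae Fructus raised 5 at the high dose against the low dose, Soshiho-tang 3 and Yijin-tang 1, and none fell, where 22.3%, 9.92% and 3.61% of all genes rose. Against the vehicle 4, 1 and 1 rose, where 23.4%, 14.2% and 8.02% of all genes rose. The counts of 1 of 7 are not far from these shares. The median log2 changes of the 7 were 0.72, 0.24 and 0.05, beside 0 for all genes. KCNAB2, a potassium channel beta subunit of aldo-keto reductase fold, rose by 0.75 ± 0.06 with Schisandrae Fructus (27.0 against 16.0 CPM, edgeR adjusted p = 2.54e-13). AKR1E2 rose by 0.72 ± 0.15 and 0.60 ± 0.18 with Schisandrae Fructus and Soshiho-tang. AKR1B15, a neighbour of AKR1B10 that shares sequence with it, rose in all 3 extracts by 1.37 to 1.54, from a level of 0.24 to 0.264 CPM at which few counts carry the value. Against the vehicle AKR1B15 passed in none of them (adjusted p = 0.147 with Schisandrae Fructus, 0.149 with Soshiho-tang and 0.0966 with Yijin-tang), and KCNAB2 stood at 0.05 ± 0.07 with Soshiho-tang. AKR1C4, AKR1C8 and AKR1D1 had at most 1 count in any library.

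Targets of NRF2 outside the family rose most often with Soshiho-tang and Schisandrae Fructus, and fewer rose with the other replicated extracts. Of 25 listed targets, Soshiho-tang raised 16 and lowered 0 at the high dose against the low dose (median 0.33 against 0 for all genes), Schisandrae Fructus raised 14 and lowered 3 (median 0.24), and Yijin-tang raised 3 and lowered 0 (median 0.05). Over all genes the rises were 9.92%, 22.3% and 3.61% and the falls 8.66%, 23.6% and 3.39% in these comparisons. Against the vehicle Soshiho-tang raised 18 targets and lowered 1, Schisandrae Fructus 15 and 3 and Yijin-tang 6 and 2. Longan Arillus raised 5 and lowered 1, Zizyphi Semen 5 and 0 and Liriopis seu Ophiopogonis Tuber 1 and 0. In that order 14.2%, 23.4%, 8.02%, 5.61%, 5.3% and 1.42% of all genes rose. Against the low dose Zizyphi Semen raised 2 targets, Longan Arillus 1 and Liriopis seu Ophiopogonis Tuber 0, and 0 fell. Of all genes 2.02%, 0.342% and 0% rose. With Soshiho-tang the haem-degrading enzyme HMOX1 rose by 3.09 ± 0.08, GCLC of glutathione synthesis by 0.97 ± 0.06, thioredoxin reductase TXNRD1 by 0.85 ± 0.06 and the ferritin chain FTH1 by 0.97 ± 0.08. With Schisandrae Fructus HMOX1 rose by 0.36 ± 0.06, TXNRD1 by 0.63 ± 0.05, SRXN1, which repairs peroxiredoxins, by 0.61 ± 0.05 and GCLC by 0.51 ± 0.05, while malic enzyme ME1 fell by 0.61. AKR1C1 stood at 1.04 with Soshiho-tang at 500 µg/mL and at 1.69 with Schisandrae Fructus at 310 µg/mL, doses that differ, and the difference between these extracts was not tested. Among the regulators, the mRNA of NFE2L2, which encodes NRF2, rose by 0.15 ± 0.05 and 0.10 ± 0.04 with Soshiho-tang and Schisandrae Fructus, KEAP1 did not pass, and the small partner MAFF rose by 1.05 ± 0.09, 1.15 ± 0.08 and 0.43 ± 0.08 with Soshiho-tang, Schisandrae Fructus and Yijin-tang.

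Lists of other enzymes that share substrates with the members are given beside the shares of all genes, 22.3% higher and 23.6% lower with Schisandrae Fructus and 9.92% and 8.66% with Soshiho-tang, and several of the counts lie near them. Of 22 tested carbonyl and aldehyde enzymes, Schisandrae Fructus raised 10 and lowered 4, led by retinaldehyde dehydrogenase ALDH1A3 (1.13 ± 0.04, from 600 to 1310 CPM), and Soshiho-tang raised 1 and lowered 4. Of 13 tested steroid enzymes, Schisandrae Fructus raised 1 and lowered 6, with steroid sulfatase STS at -0.82 ± 0.09. Of 11 tested prostaglandin genes, it raised 2 and lowered 6; cyclooxygenase PTGS2 rose by 1.11 ± 0.10 with it, by 1.12 ± 0.12 with Soshiho-tang and by 0.78 ± 0.10 with Yijin-tang. In the polyol and sugar list, where AKR1B1 acts, Yijin-tang changed 0 of 8 genes against the low dose by edgeR's adjusted p, and SORD, the sorbitol dehydrogenase that follows aldose reductase, stood at -0.01 ± 0.05 with it. In that comparison 3.61% of all genes rose and 3.39% fell. Against the vehicle Yijin-tang raised 2 of the 8 and lowered 0, where 8.02% of all genes rose and 11.7% fell. The libraries compared here are those of the members' own tests, so these counts are no independent support.

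The genes whose level followed each member most closely over the 25 group means were described by Pearson's r, without a test, since groups share library sets and a few groups set the range. AKR1C1 ran with PLAUR, the urokinase receptor (r = 0.969), TBL2 (0.967) and TRPM4, a cation channel (0.967), and these stayed its 3 closest without the high-dose groups of Polygalae Radix and Aucklandiae Radix (0.946, 0.924 and 0.924 over 23 groups). AKR1B1 ran with IL1RL1, the interleukin 33 receptor (0.949, and 0.894 over 23 groups), PSMB10 (0.947, 0.865) and NFE2L3 (0.94, 0.811). For AKR1C2 the closest were ARF4, PNPLA2 and TALDO1 (0.864 to 0.87), for AKR1C3 PDHB, HNRNPUL2 and STING1 (0.902 to 0.916), for AKR1A1 ATAD3A and RTCB (0.978 and 0.967), for AKR7A2 UQCRC1, SRPX and PSMD10 (0.978 to 0.979) and for AKR1B10 AASDH, CDCA3 and HP1BP3 (0.714 to 0.723). Over the 23 groups r was lower for all of these genes. It was 0.767 to 0.787 for those of AKR1C2, 0.545 to 0.74 for AKR1C3 and 0.891 and 0.834 for AKR1A1. For AKR7A2 it was 0.733 to 0.79 and for AKR1B10 0.407 to 0.479. Among the members AKR1A1 and AKR7A2 were the closest pair (0.91), but only 0.45 over the 23 groups. AKR1C1 and AKR1A1 were at 0.59 over 25 groups and 0.84 over 23, and AKR1C1 and AKR1C2 at 0.62 and 0.81.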

How the data were processed

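RNA-seq of SW1783 cells was deposited as 1 table of expected counts per gene for 60 libraries. The authors trimmed, aligned and counted reads with Trim Galore 0.6.5, STAR 2.7.3a and RSEM 1.3.3 against hg38, with FastQC 0.11.9 as read check, per the submitters' processing notes; which gene annotation and strand option they used is not given in the sources used here. The deposited expected counts were rounded to whole numbers for the tests. RSEM divides reads that fit several genes, which bears on the AKR1C genes.

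The test was edgeR 4.0.16 (R 4.3.3), quasi-likelihood, on 54 libraries of the 19 groups with replicates, with TMM scaling, its default filter on low counts (17851 genes left), 35 residual degrees of freedom and Benjamini-Hochberg adjustment over all genes in each comparison at 0.05. The script was tested on simulated data. CPM are TMM-scaled over all 60 libraries. Groups of 1 library were compared by fold alone. Alternatives were other scaling, DESeq2 1.42.0, no filter, only the libraries compared, each library left out, a replicate block and summed paralogue counts. Members and gene lists were chosen with earlier results of these data known. Named genes were the members, up to 4 genes of lowest adjusted p per list and comparison, NFE2L2, KEAP1 and the 3 closest genes per member among genes reaching 5 CPM in a group mean; 1 of these closest genes is not reported here.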

Additional observations from a re-analysis of the deposited data

Results flagged for a closer look

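3 differences between extracts passed a test of the difference itself, taken as the high minus low dose effect of one extract minus that of the other within a library set (edgeR quasi-likelihood test, adjusted over all genes). The AKR1C1 effect was 0.63 larger on the log2 scale with Soshiho-tang than with Yijin-tang (adjusted p = 2.06e-05), at equal doses, and 0.48 larger for the summed AKR1C counts (adjusted p = 0.000498). The AKR1C1 effect was 1.69 larger with Schisandrae Fructus than with Liriopis seu Ophiopogonis Tuber (adjusted p = 8.58e-18), and the AKR1A1 effect 0.41 larger (adjusted p = 0.00313), with doses that differ between these extracts.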

How the results depend on the processing

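Of the 26 member values called, 16 were called in every alternative run and 10 lost the call in at least 1; none of the 2663 alternative values reversed a called direction. The replicate numbers did not pair the samples (median correlation of same-numbered deviations 0 to 0.01, lowest -0.21); with a replicate block, 9 members were higher at the high against the low dose and 13 against the vehicle, as without it, and 4 differences between extracts passed, as with DESeq2 and with no filter on low counts, against 3 in the reported fit and 3 to 4 with 1 library left out. At the medium dose against the vehicle, 1 member was higher, against 2 with the replicate block, 2 with DESeq2 and 2 with only the libraries compared; leaving out 1 library gave 0 (without vehicle replicate 3) to 3 (without Longan Arillus medium replicate 2) higher, and 0 to 1 (without vehicle replicate 2) lower. With only the libraries compared, 1 member was lower at the high against the low dose (0 in the reported fit), 1 was higher at the low dose against the vehicle (0 in the reported fit), and 5 differences between extracts passed. Scaling to library totals counted 5 rather than 9 values in the groups of 1 library. Of the 21 closest genes, 10 were again among the 3 closest over the 60 libraries, 7 without the Polygalae Radix high group and 5 also without the Aucklandiae Radix high group, the last pair chosen after seeing the data. Where no other value is given, the cause was not tested. Counts of 68 to 193 per library limit what can be seen for AKR1B10.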
